A study of Mus musculus with 6 samples.

Results

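The transcripts of the mouse mitochondrial genome were taken as every gene whose symbol starts with mt-, which gave 37 of the 50385 genes in the count table. They are 13 protein genes, 2 ribosomal RNA (rRNA) genes and 22 transfer RNA (tRNA) genes. They were measured in hearts of male mice that carry the Mdx mutation of the dystrophin gene and lack its relative utrophin (Mdx/Utrn double knockout), in a series that asks what part the oxidase Nox4 plays in their cardiomyopathy. Treatment began at 2 to 3 months of age and lasted 12 weeks. The setanaxib group, of 3, was given this Nox4 inhibitor daily by mouth through a gavage tube, at a dose of 60 mg per kg and day, and the vehicle group, also of 3, was given corn oil in the same way. Both groups carry the double knockout and no heart with intact genes is among the samples, so the values say nothing of disease against health. The labels number the libraries but do not call them separate animals, so the spread behind each p-value is that of the 6 libraries and may be technical.

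Mitochondria keep a small circular genome of their own, and all of its protein genes encode subunits of the respiratory chain or of ATP synthase. Both strands are read into long precursors by a dedicated RNA polymerase, and most mRNAs are freed when the tRNAs that lie between them are cut out. Heart muscle is among the tissues richest in mitochondria, and these transcripts make up a large part of its polyadenylated RNA. The remaining subunits of the same complexes, and all proteins that copy, read, cut and translate the mitochondrial genome, are encoded in the nucleus.

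Libraries held 110803307 to 154003318 estimated counts. Of the 37 genes, 35 passed the filter on low counts: all 13 protein genes, both rRNA genes and 20 of the 22 tRNA genes. The tRNA genes mt-Tf, for phenylalanine, at 0 to 5 estimated counts, and mt-Tg, for glycine, at 4 to 24, did not. Levels below are CPM, the estimated counts of a gene scaled to a common library size, here by the trimmed mean of M values (TMM). Samples matched their label as heart: all 10 markers of heart muscle cells were present, with a summed level of 44052 to 47099 CPM in vehicle libraries and of 34187 to 49246 CPM in setanaxib libraries. Setanaxib replicate 3 stood apart. Its 6 lung epithelium markers summed to 762 CPM. That sum was 0.198 to 24.0 CPM in vehicle libraries and 0.220 and 0.221 CPM in the other setanaxib libraries. Testable among them were Scgb1a1, Scgb3a1 and Bpifa1. Bpifa1 was at 0 in the other setanaxib libraries and in vehicle replicate 2, where Scgb1a1 was at 0 too. The lung markers Sftpc, Sftpb and Sftpa1 are in the sum but did not pass the filter. In setanaxib replicate 3 the 4 testable atrial markers of 5 summed to 3129 CPM against 68.8 to 589 CPM elsewhere. Both heart-muscle and mitochondrial sums were lowest in this library, and the part of these markers in the mitochondrial values was not tested.

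The mitochondrial genes lie end to end, so their sequences bear on how reads are assigned, and a few are shown here for that reason. All 37 were found in the GENCODE M21 transcripts of the GRCm38 build, from which sequences, lengths and order were taken. The deposited counts were made on GRCm39, so no coordinates are given. mt-Atp8, which encodes a small subunit of ATP synthase, shares its last 43 bases, in capitals, with the start of mt-Atp6, so that a read from this stretch belongs to both genes.
mt-Atp8: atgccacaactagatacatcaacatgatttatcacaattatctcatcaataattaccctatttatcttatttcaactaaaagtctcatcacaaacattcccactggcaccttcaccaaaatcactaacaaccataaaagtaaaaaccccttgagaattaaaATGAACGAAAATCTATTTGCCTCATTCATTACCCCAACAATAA

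Other overlaps were shorter. mt-Nd4l and mt-Nd4 share 7 bases on the same strand, mt-Nd5 and mt-Nd6 share 14 bases on opposite strands, and mt-Ti and mt-Tq share 3 bases on opposite strands. The tRNA gene mt-Ts1 shares its last 3 bases, in capitals, with the opposite strand of mt-Co1.
mt-Ts1: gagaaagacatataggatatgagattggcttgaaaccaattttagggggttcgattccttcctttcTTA

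Of the 13 protein genes, 7 also have a near-identical annotated copy outside the mitochondrial genome, of at least 99% identity over at least 90% of the copy's length. These 7 are Gm29216 for mt-Co1, Gm28661 for mt-Co2, Gm10925 for mt-Atp6, Gm28437 for mt-Co3, Gm28438 for mt-Nd3, Gm10222 for mt-Nd4l and Gm28439 for mt-Nd4. The copies Gm28661, Gm10925, Gm28437, Gm10222 and Gm28439 have 0 mismatches, over 681, 678, 783, 294 and 876 bases. Gm28438 carries 1 substitution over 345 bases, T3C, counted from 1 at the 5′ end of the mitochondrial gene. The first bases of the mitochondrial gene and of its copy are shown with that base in capitals, since it is the only letter that differs over the aligned bases.
mt-Nd3: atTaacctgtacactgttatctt
Gm28438: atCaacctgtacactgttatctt

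Where the copy spans nearly the whole gene, both carried almost the same estimated count. Gm28661 differed from mt-Co2 by at most 0.184% and Gm28437 from mt-Co3 by at most 0.327% in any library, and Gm28438 from mt-Nd3, Gm10925 from mt-Atp6 and Gm10222 from mt-Nd4l by at most 5.11%, 6.17% and 6.52%. The copies Gm29216, with 1 mismatch over 483 aligned bases, and Gm28439 cover only part of mt-Co1 and mt-Nd4, and their counts were below the gene's, with differences of up to -85.1% and -62.3%. The levels of these 7 genes are therefore uncertain, since a read matching both places may be counted at both or divided between them. For mt-Nd1, mt-Nd2, mt-Nd5, mt-Nd6, mt-Cytb, mt-Atp8 and the rRNA and tRNA genes the annotation held no copy at these limits. The 7 copies together took 6.57%, 6.85% and 6.11% of the 3 vehicle libraries and 7.14%, 6.36% and 5.10% of the 3 setanaxib libraries.

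The share of the library taken by mitochondrial transcripts did not separate the groups. The 37 genes held 26.0%, 26.8% and 23.5% of the estimated counts in vehicle replicates 1 to 3, a mean of 25.4% ± 1.71 (SD, n = 3). They held 30.0%, 25.5% and 20.5% in setanaxib replicates 1 to 3, a mean of 25.3% ± 4.73 (SD, n = 3). Setanaxib replicate 1 had the highest share of all 6 libraries, setanaxib replicate 3 the lowest, and the 3 vehicle libraries lay between them. The difference of the means was -0.11 percentage points, and it was -2.42 points without setanaxib replicate 1 and 2.30 points without setanaxib replicate 3. It also turned positive without vehicle replicate 1 (0.17 points) or 2 (0.58 points), and when the most abundant nuclear noncoding RNAs were left out of the total (0.05 points). Those noncoding RNAs summed to 38783, 42455 and 40748 CPM in vehicle libraries and to 49551, 45422 and 43298 CPM in setanaxib libraries. Their sum was thus higher in each setanaxib library than in each vehicle library. Of the 8 tested singly, 8 had log2 fold changes above 0, but only 1, Rn7sk, was higher without overlap. That holds for 8.11% of all genes. With the 7 copies added, the share was 32.6%, 33.6% and 29.6% with vehicle and 37.1%, 31.9% and 25.6% with setanaxib.

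Nearly all of these counts came from protein genes, which held 99.3% of the mitochondrial total in each library but setanaxib replicate 1, at 99.1%. tRNA genes held 0.664%, 0.685% and 0.667% with vehicle and 0.895%, 0.677% and 0.664% with setanaxib. rRNA genes held 0.0072%, 0.010% and 0.0071% with vehicle and 0.0277%, 0.0058% and 0.0060% with setanaxib. The rRNAs of mitochondria are abundant molecules in cells, so these values describe what entered the libraries. The sources used here do not say how RNA was selected. Setanaxib replicate 1 had the highest share of both tRNA and rRNA genes, and the other setanaxib libraries lay within or below the vehicle range.

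**Figure D1:**
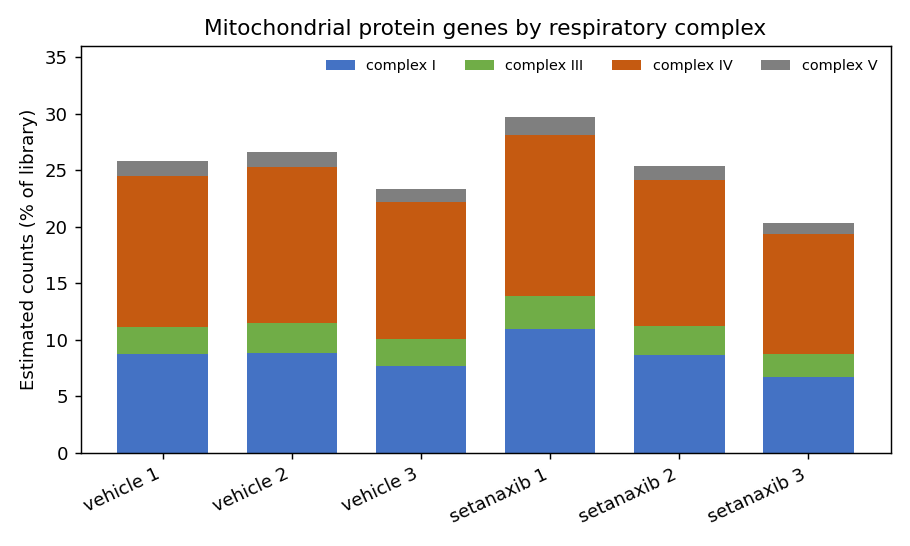
Stacked bars give the percent of each library's estimated counts in mitochondrial protein genes, by respiratory complex, for the 3 vehicle and 3 setanaxib libraries. Complex IV is the broadest band in each bar, and the full bars run from 20.4% in setanaxib replicate 3 to 29.7% in setanaxib replicate 1.

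None of the 35 tested members passed the test for a difference between the groups. edgeR's quasi-likelihood test, with Benjamini-Hochberg adjustment over 20472 genes, called 0 of 35, against 0.00488% of all genes, and their adjusted p ran from 0.561 to 0.9996. DESeq2 called 0 of the 34 members to which it gave a p, against 2.38% of all genes, and limma-voom called 0 of 35, against 0.0% of all genes. At an unadjusted p under 0.05, edgeR, DESeq2 and limma-voom each had 2 members, where edgeR had 8.46%, DESeq2 10.9% and limma-voom 9.58% of all genes. For edgeR that is 5.71% of the members, a share below the background. The 2 by edgeR were the tRNA genes mt-Tq and mt-Tm. The groups did not overlap in 4 of 35 members, or 11.4%, against 17.6% of all genes. The median log2 fold change of the 35, setanaxib over vehicle, was 0.12, with 24 above 0 and 11 below, against a median of 0.01 over all genes tested.

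The 13 protein genes had log2 fold changes of -0.09 to 0.16, with a median of 0.00, 7 above 0 and 6 below. Their standard errors were 0.24 to 0.33 and their adjusted p-values 0.937 to 0.9996. A change smaller than the standard error, or even well above it, would not be told from the spread between libraries. The tRNA gene mt-Tt, at a log2 fold change of 2.03 with a standard error of 0.91, had an edgeR adjusted p of 0.624. In all 13 the highest library was setanaxib replicate 1 and the lowest setanaxib replicate 3. The ratio of these 2 libraries ran from 1.78 for mt-Co1 to 2.38 for mt-Nd2, while the highest and lowest vehicle libraries differed by 1.11 times for mt-Nd6 to 1.38 times for mt-Nd1. The coefficient of variation was 5.77% to 16.2% among vehicle libraries and 27.7% to 42.4% among setanaxib libraries.

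The sign of the comparison rested on these libraries. Without setanaxib replicate 1 all 13 protein genes had negative log2 fold changes, from -0.35 to -0.15 with a median of -0.25. Without setanaxib replicate 3 all 13 were positive, from 0.12 to 0.41 with a median of 0.24. The median over all genes was 0.01 and -0.00 in these fits. Without vehicle replicate 2, 12 were above 0 and 1 below, and without vehicle replicate 1, vehicle replicate 3 or setanaxib replicate 2 the counts were 4 and 9, 3 and 10, and 4 and 9. edgeR called 0 protein genes in each of these fits. Without setanaxib replicate 3, 5 members had an unadjusted p under 0.05 by edgeR, all of them higher with setanaxib, or 13.9% of 36 members tested. Of all genes, 13.6% had such a p in either direction and 5.67% had it and were higher with setanaxib. The 5 members were mt-Te, mt-Nd6, mt-Tt, mt-Rnr1 and mt-Nd5, with edgeR adjusted p of 0.285 to 0.345. Without setanaxib replicate 1 there were 0, against 10.1% of all genes.

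**Figure D2:**
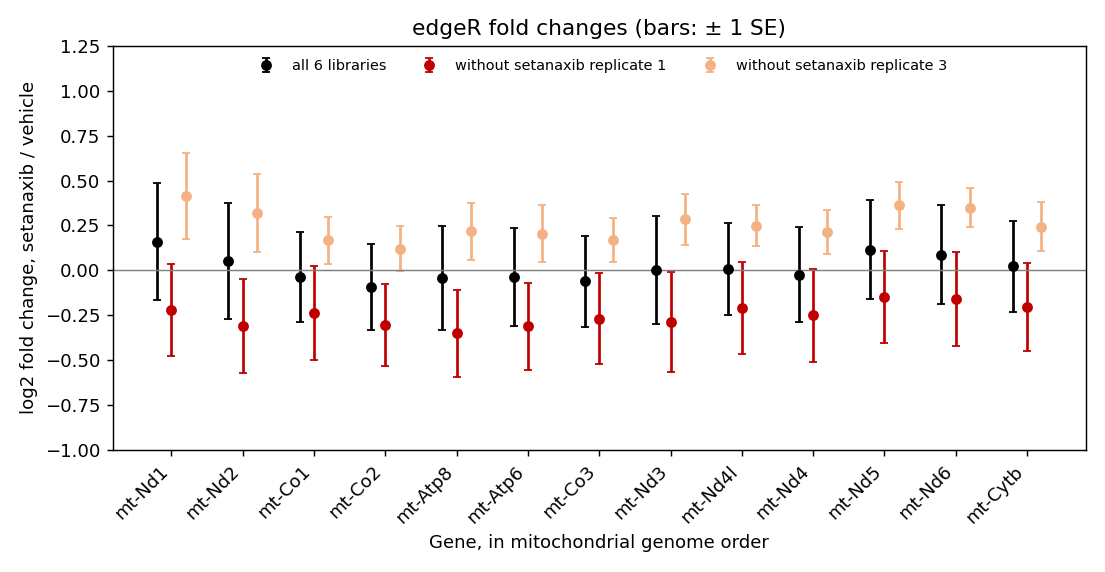
Points are edgeR log2 fold changes of setanaxib over vehicle for the 13 mitochondrial protein genes in genome order, with bars of 1 standard error, from all 6 libraries and from the fits without setanaxib replicate 1 or 3. With all libraries the points lie between -0.09 and 0.16, and they are all below 0 without replicate 1 and all above 0 without replicate 3.

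Complex I, the entry point of electrons from NADH, has 7 mitochondrial subunits. mt-Nd1 encodes a membrane subunit next to the quinone site, and its level was 23707, 25521 and 18481 CPM in vehicle libraries and 36778, 23166 and 15701 CPM in setanaxib libraries. The setanaxib values lay on both sides of the vehicle values, and the log2 fold change was 0.16 (SE 0.33, edgeR adjusted p = 0.937). mt-Nd2, a proton-pumping subunit, was at 11630, 12722 and 9393 CPM in vehicle libraries and 16813, 11156 and 7052 CPM in setanaxib libraries. mt-Nd4 and mt-Nd5 encode further pumping subunits of the membrane arm. mt-Nd4 was at 18911, 20703 and 17189 CPM in vehicle libraries and 23899, 19868 and 12092 CPM in setanaxib libraries. mt-Nd5 was at 24518, 25237 and 21905 CPM in vehicle libraries and 34367, 26864 and 16397 CPM in setanaxib libraries. Of the setanaxib libraries, replicates 1 and 2 both exceeded the vehicle range of mt-Nd5 and replicate 3 fell short of it (log2 fold change 0.12, SE 0.28, edgeR adjusted p = 0.949). The small subunit genes mt-Nd3 and mt-Nd4l, both with near-identical copies, had log2 fold changes of 0.00 and 0.01.

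mt-Nd6 is the one protein gene read from the light strand, and its transcript starts from a different promoter than the other 12. Its level was 4741, 4727 and 4276 CPM in vehicle libraries and 6366, 5258 and 2976 CPM in setanaxib libraries (log2 fold change 0.09, SE 0.28, edgeR adjusted p = 0.965). As a percent of the 12 heavy-strand protein genes it was 1.88, 1.71 and 1.92 with vehicle and 1.95, 2.04 and 1.77 with setanaxib. These ranges overlapped, with a difference of the means of 0.08 percentage points, which stayed positive, from 0.02 to 0.15, when each library was left out in turn. The sources used here do not say whether counting used strand, so reads of mt-Nd6 and heavy-strand reads across the same stretch cannot be told apart.

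Complex III passes electrons to cytochrome c and has 1 mitochondrial subunit, cytochrome b. mt-Cytb was at 24166, 27755 and 22745 CPM in vehicle libraries and 32485, 26245 and 17173 CPM in setanaxib libraries (log2 fold change 0.02, SE 0.25, edgeR adjusted p = 0.993). Setanaxib replicate 2 lay inside the vehicle range and the other setanaxib libraries on either side of it.

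Complex IV, cytochrome c oxidase, reduces oxygen to water with 3 mitochondrial subunits at its core. mt-Co1, which encodes the subunit that binds the oxygen-reducing haem, had the highest level of any member, 105891, 116295 and 93870 CPM in vehicle libraries and 128384, 107407 and 72185 CPM in setanaxib libraries. Its log2 fold change was -0.04 (SE 0.25, edgeR adjusted p = 0.988). mt-Co2, whose product takes electrons from cytochrome c, was at 14733, 15479 and 12898 CPM in vehicle libraries and 17115, 14041 and 9318 CPM in setanaxib libraries. At -0.09 (SE 0.24) it had the lowest log2 fold change of the 13, and edgeR's adjusted p was 0.955. mt-Co3 was at 12390, 13649 and 11113 CPM in vehicle libraries and 14975, 12751 and 7867 CPM in setanaxib libraries, again with setanaxib replicates 1 and 3 at the ends.

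Complex V, the ATP synthase, holds 2 mitochondrial subunits of its membrane part. mt-Atp6 encodes the subunit that lines the proton path and was at 10761, 11772 and 9474 CPM in vehicle libraries and 13977, 10529 and 6736 CPM in setanaxib libraries. The overlapping mt-Atp8 was at 2438, 2648 and 2190 CPM in vehicle libraries and 3245, 2376 and 1443 CPM in setanaxib libraries. Both had log2 fold changes just below 0, -0.03 and -0.04, with standard errors of 0.27 and 0.29.

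**Figure D3:**
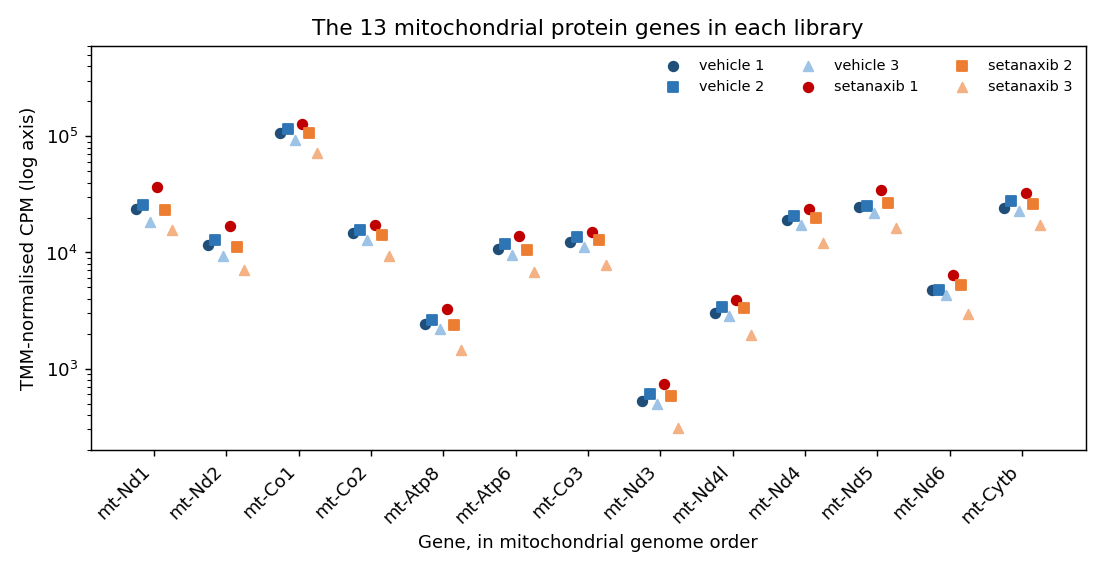
Each point is 1 library's TMM-normalised CPM, on a log axis, for the 13 mitochondrial protein genes in genome order, coloured by vehicle and setanaxib replicate. mt-Co1 is highest throughout and mt-Nd3 lowest, and within each gene setanaxib replicate 1 is the top point and setanaxib replicate 3 the bottom one.

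Inside the pool of 13 protein genes, the shares of the 4 complexes overlapped between the groups. Complex IV held 51.7%, 51.8% and 52.0% of the pool with vehicle and 48.2%, 50.9% and 52.2% with setanaxib. Complex I held 33.8%, 33.1% and 32.9% with vehicle and 36.9%, 34.2% and 33.0% with setanaxib. Setanaxib replicate 1 thus had the lowest share of complex IV and the highest of complex I, and the other 5 libraries lay between 50.9% and 52.2% for complex IV and between 32.9% and 34.2% for complex I. The difference of the means was -1.40 points for complex IV and 1.44 points for complex I, and -0.27 and 0.35 points without setanaxib replicate 1. Complex III held 9.39% to 10.03% with vehicle and 9.75% to 10.03% with setanaxib. Complex V held 5.13%, 5.14% and 5.14% with vehicle and 5.17%, 4.90% and 4.78% with setanaxib.

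Among the 13 genes, the groups did not overlap in 1 as a share of this pool. mt-Co2 held 5.72%, 5.52% and 5.69% with vehicle and 5.14%, 5.33% and 5.44% with setanaxib. Each setanaxib library was below each vehicle library, as was so for 3.66% of all genes on the same scale and 9.46% on the CPM scale. Nuclear genes carry the spread of the pool itself on this scale, so the 3.66% is not a like comparison. On the CPM scale the groups overlapped for mt-Co2. The count of mt-Co2 is nearly the same as that of its copy Gm28661, and the difference was not called with this scaling.

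Per length, the order of the 13 genes was steep at its ends and shallow in the middle. On the scale of CPM per kilobase of gene, averaged over 6 libraries, mt-Co1 was first at 67317 and mt-Nd3 last at 1555, in each library. mt-Nd1, at 24966, and mt-Cytb, at 21936, followed mt-Co1, with mt-Nd1 second in 5 libraries and mt-Cytb second in vehicle replicate 3. mt-Co2 was at 20366, and in vehicle replicate 1 it came before mt-Cytb. Below these came mt-Atp6 at 15479, mt-Co3 at 15464, mt-Nd5 at 13641, mt-Nd4 at 13626, mt-Atp8 at 11716, mt-Nd2 at 11041, mt-Nd4l at 10314 and mt-Nd6 at 9102. Compared inside each library, the order of neighbours held in 6 of 6 libraries for mt-Co1 over mt-Nd1, mt-Co2 over mt-Atp6, mt-Co3 over mt-Nd5, mt-Nd4 over mt-Atp8, mt-Nd4l over mt-Nd6 and mt-Nd6 over mt-Nd3. The remaining neighbours changed places between libraries, and mt-Atp6 was above mt-Co3 in only 1 of 6 and mt-Nd5 above mt-Nd4 in 3 of 6. With the counts of the copies added, mt-Co2, mt-Atp6 and mt-Co3 were at 40765, 31465 and 30966 and passed mt-Nd1, so the order below mt-Co1 depends on how shared reads are assigned, while mt-Nd3, at 3182, remained last.

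The 2 rRNA genes had few counts for their length, 3.65 CPM per kilobase for mt-Rnr1 and 17.0 for mt-Rnr2. mt-Rnr1, the RNA of the small mitochondrial ribosomal subunit, was at 1.24, 1.81 and 2.23 CPM in vehicle libraries and 12.5, 2.02 and 1.12 CPM in setanaxib libraries (log2 fold change 1.57, SE 0.90, edgeR adjusted p = 0.699). mt-Rnr2, the RNA of the large subunit, was at 17.5, 26.5 and 13.9 CPM in vehicle libraries and 80.8, 13.5 and 9.23 CPM in setanaxib libraries (log2 fold change 0.84, SE 0.83, edgeR adjusted p = 0.851). In both, 1 library, setanaxib replicate 1, was above all others, and setanaxib replicate 3 was the lowest. Without setanaxib replicate 1 the log2 fold changes were -0.17 and -0.77.

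The tRNA genes spanned a wide range, and those with the most counts were mostly annotated on the light strand. With the strand setting unknown, reads of these genes and heavy-strand reads across them cannot be told apart. The levels and sums below are therefore by annotated strand. mt-Ts1, a serine tRNA gene that lies opposite the end of mt-Co1, led with 554, 659 and 571 CPM in vehicle libraries and 696, 664 and 411 CPM in setanaxib libraries. mt-Te, a glutamate tRNA gene beside mt-Nd6 and on the same strand, was at 283, 301 and 250 CPM in vehicle libraries and 583, 353 and 216 CPM in setanaxib libraries. The groups overlapped in both genes, and the log2 fold changes were -0.01 (SE 0.21) and 0.47 (SE 0.34). mt-Tc, mt-Ty and mt-Tn, the neighbouring light-strand genes for cysteine, tyrosine and asparagine, had log2 fold changes of 0.17 each, with standard errors of 0.37 to 0.40. Summed, the 8 light-strand tRNA genes were at 1321, 1487 and 1226 CPM in vehicle libraries and 2092, 1476 and 907 CPM in setanaxib libraries. The 14 heavy-strand tRNA genes summed to 401, 448 and 296 CPM in vehicle libraries and to 917, 320 and 237 CPM in setanaxib libraries.

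mt-Tl1, a leucine tRNA gene between mt-Rnr2 and mt-Nd1, made up most of the heavy-strand sum. It is shown because it separates the rRNA genes from the first mRNA, and its levels stood apart in the same library as theirs.
mt-Tl1: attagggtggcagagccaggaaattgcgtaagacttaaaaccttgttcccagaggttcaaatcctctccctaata
Its level was 267, 290 and 178 CPM in vehicle libraries and 743, 202 and 159 CPM in setanaxib libraries (log2 fold change 0.59, SE 0.60, edgeR adjusted p = 0.858). Setanaxib replicate 1 was again the only setanaxib library above the vehicle range, and without it the log2 fold change was -0.45.

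The 20 tested tRNA genes had a median log2 fold change of 0.19, with 15 above 0 and 5 below, and setanaxib replicate 1 was the highest library in 17 of them. An exception was a run of neighbours. mt-Ti, mt-Tq and mt-Tm, the tRNA genes for isoleucine, glutamine and methionine, lie in this order between mt-Nd1 and mt-Nd2. They were lower in each setanaxib library than in each vehicle library. With 3 of 35 tested members lower in this way, the share was not above the 9.46% of all genes tested. These 3, with mt-Tt and mt-Tk, were singled out after their values were seen. Their sequences are shown because the group stands together on the genome while mt-Tq is read from the opposite strand.
mt-Ti: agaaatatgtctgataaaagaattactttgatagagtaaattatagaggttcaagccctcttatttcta
mt-Tq: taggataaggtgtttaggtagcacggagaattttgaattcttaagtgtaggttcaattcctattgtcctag
mt-Tm: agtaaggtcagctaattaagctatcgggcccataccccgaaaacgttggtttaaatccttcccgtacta

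mt-Ti was at 12.9, 15.7 and 12.1 CPM in vehicle libraries and 11.2, 12.0 and 4.598 CPM in setanaxib libraries (log2 fold change -0.55, SE 0.36, edgeR adjusted p = 0.744). mt-Tq was at 32.2, 36.7 and 28.5 CPM in vehicle libraries and 22.7, 28.3 and 16.2 CPM in setanaxib libraries (log2 fold change -0.53, SE 0.22, edgeR adjusted p = 0.583). mt-Tm was at 84.3, 98.9 and 75.7 CPM in vehicle libraries and 66.6, 72.0 and 47.5 CPM in setanaxib libraries (log2 fold change -0.48, SE 0.18, edgeR adjusted p = 0.561). In mt-Ti and mt-Tq the gap between the nearest libraries of the groups was small, 12.0 against 12.1 CPM and 28.3 against 28.5 CPM. None of the 3 was called by edgeR, DESeq2 or limma-voom. Their log2 fold changes kept their sign when each library was left out in turn, from -0.78 to -0.22 for mt-Ti, from -0.74 to -0.34 for mt-Tq and from -0.60 to -0.31 for mt-Tm, where the least negative values came without setanaxib replicate 3. Those of the flanking genes mt-Nd1 and mt-Nd2 were 0.16 and 0.05. With the strand setting unknown, reads of mt-Tq and reads of the heavy-strand precursor across it cannot be told apart. Markers of several other cell types also had negative log2 fold changes. These were 8 of 8 macrophage markers, with sums of 291 to 374 CPM in vehicle libraries and of 185 to 225 CPM in setanaxib libraries, and 7 of 7 fibroblast markers, with sums of 973 to 1279 and of 586 to 1012 CPM. They were also 6 of 6 markers of smooth muscle and pericytes, with sums of 700.4 to 859.5 and of 509 to 776 CPM, and 5 of 6 endothelial markers, with sums of 598 to 686 and of 463 to 589 CPM. The sums did not overlap for macrophages and endothelial cells. Singly, 8 macrophage, 4 fibroblast, 2 smooth muscle and pericyte and 1 endothelial markers were lower without overlap, against 9.46% of all genes. In this order of cell types, 7, 4, 1 and 0 markers had an unadjusted p under 0.05 by edgeR, against 8.46% of all genes. Other lists went the other way. Among tested markers, 5 of 5 for erythrocytes, 3 of 3 for adipocytes, 3 of 4 for lymphocytes and 4 of 4 for atrial cells were above 0. So were 3 of 3 for lung epithelium and 1 of 1 each for skeletal muscle and brown adipocytes. Of these, 1 lymphocyte marker and 1 skeletal muscle marker were higher without overlap, against 8.11% of all genes. Heart muscle markers were divided 4 above and 6 below 0, with 3 of 10 lower and 0 higher without overlap. The part of any of these markers in these tRNA values was not tested.

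As a share of the 13 protein genes' pool the same 3 were also lower without overlap. mt-Tm was at 0.0328%, 0.0353% and 0.0334% of the pool with vehicle and at 0.0200%, 0.0273% and 0.0277% with setanaxib. mt-Tq was at 0.0125%, 0.0131% and 0.0126% with vehicle and at 0.0068%, 0.0107% and 0.0095% with setanaxib. On this scale setanaxib replicate 1, which was high for most tRNA genes, was the lowest library for both. In all, 7 of 35 members did not overlap as a share of the pool, against 6.52% of all genes. On the CPM scale the shares without overlap were 11.4% of members and 17.6% of all genes. Dividing by the pool, which ran from 171219 to 333039 CPM, adds its spread to nuclear genes and takes shared spread out of members. The shares of members and of all genes on this scale are therefore not a like comparison. mt-Co2, mt-Ti, mt-Tq and mt-Tm were lower, against 3.66% of all genes, and mt-Th, mt-Te and mt-Tt were higher, against 2.86%. With this scaling the median of all genes was 0.10 on the log2 scale, so values are relative to the pool and not to the rest of the library.

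The threonine tRNA gene mt-Tt, after mt-Cytb, was the one tested member higher in each setanaxib library on the CPM scale, where this holds for 8.11% of all genes. It is shown with the lysine tRNA gene mt-Tk because setanaxib replicate 1 was farthest above the other libraries in these among tRNA genes.
mt-Tt: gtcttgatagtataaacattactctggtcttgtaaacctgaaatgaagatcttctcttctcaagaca
mt-Tk: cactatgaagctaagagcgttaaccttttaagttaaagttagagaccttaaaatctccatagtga
mt-Tt was at 1.87, 1.96 and 1.80 CPM in vehicle libraries and 18.7, 2.21 and 1.97 CPM in setanaxib libraries (log2 fold change 2.03, SE 0.91, edgeR adjusted p = 0.624). Without setanaxib replicate 1 the log2 fold change was 0.15, so 1 library carried most of the difference. With the size factors of DESeq2 the groups overlapped, and DESeq2 gave this gene no p. mt-Tk was at 2.30, 3.23 and 1.97 CPM in vehicle libraries and 11.4, 2.30 and 2.07 CPM in setanaxib libraries (log2 fold change 1.07, SE 0.70, edgeR adjusted p = 0.744), and the value was -0.20 without setanaxib replicate 1.

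Setanaxib replicate 1 therefore differed from the other libraries in the makeup of its mitochondrial RNA. Against the vehicle mean, and as a share of the protein pool, its log2 difference was 2.48 for mt-Rnr1, 1.73 for mt-Rnr2, 1.24 for mt-Tl1, 1.83 for mt-Tk and 2.93 for mt-Tt. These were 3.82, 2.57, 2.15, 2.83 and 4.88 times the next highest library. It was the highest of 6 libraries on this scale in both rRNA genes, in 15 of 20 tRNA genes and in 5 of 13 protein genes. Its protein genes ranged from -0.13 to 0.33, with mt-Nd1 and then mt-Nd2 at the top, and those of the other libraries from -0.22 to 0.15. The same library had the highest level of the nuclear noncoding RNA Neat1, 2004 CPM against 519 to 715 CPM in vehicle libraries and 1212 and 539 CPM in the other setanaxib libraries. The part of the one in the other was not tested.

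**Figure D4:**
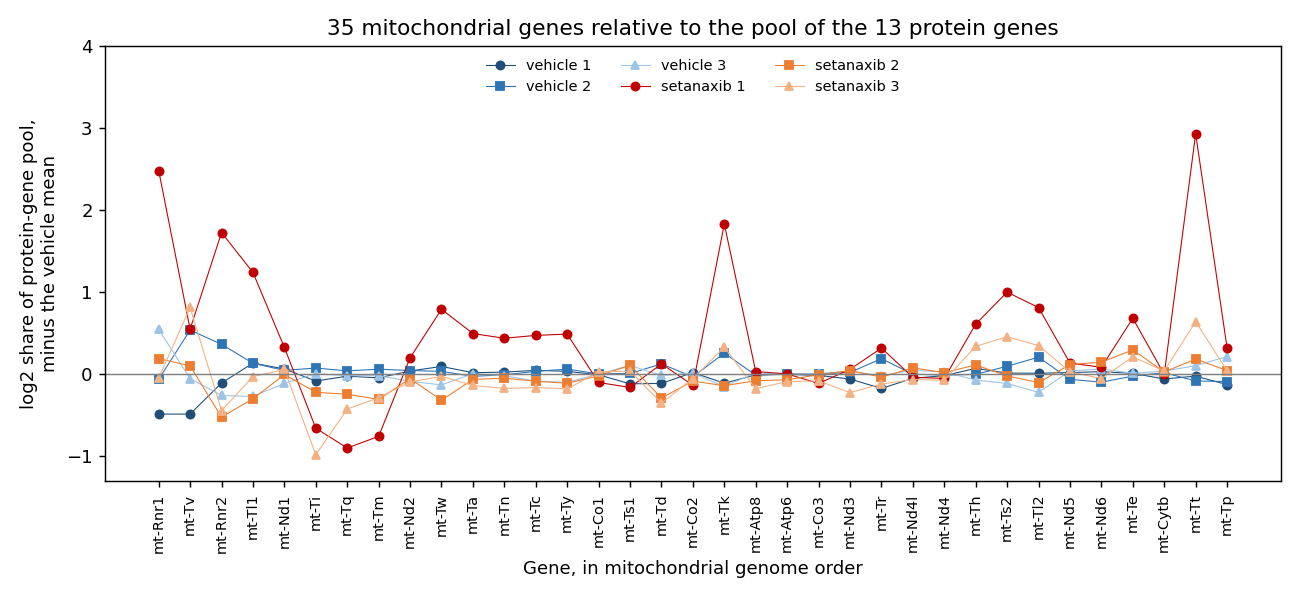
Lines give, for the 35 tested mitochondrial genes in genome order, each library's share of the 13 protein genes' pool as a log2 difference from the vehicle mean. Setanaxib replicate 1 lies above the other lines at the rRNA and many tRNA genes, to 2.93 at mt-Tt, and dips with the other setanaxib libraries at mt-Ti, mt-Tq and mt-Tm.

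Nuclear partner genes of the same complexes followed the same order of libraries in part. The 13 mitochondrial protein genes summed to 257398, 280482 and 226843 CPM in vehicle libraries and to 333039, 263580 and 171219 CPM in setanaxib libraries. The 42 nuclear partner genes of complexes I, III, IV and V summed to 12904, 13851 and 12899 CPM in vehicle libraries and to 15547, 14887 and 10898 CPM in setanaxib libraries. Both sums were highest in setanaxib replicate 1 and lowest in setanaxib replicate 3. The ratio of mitochondrial to nuclear sums was 19.9, 20.2 and 17.6 with vehicle and 21.4, 17.7 and 15.7 with setanaxib, and its ranges overlapped. Relative to the summed markers of heart muscle cells, the 13 genes were at 5.84, 6.22 and 4.82 times with vehicle and at 7.32, 5.35 and 5.01 times with setanaxib. On that ratio setanaxib replicate 3 lay inside the vehicle range. The labels name the heart and no part of it, and the atrial marker sums differed between libraries. In such tissue RNA, fewer muscle cells and less mitochondrial RNA per cell cannot be told apart.

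Of the 42 nuclear partners, 29 had log2 fold changes above 0 and 13 below. edgeR called 0, against 0.00488% of all genes, and 0 had an unadjusted p under 0.05. DESeq2 and limma-voom also called 0, each with 0 at an unadjusted p under 0.05. The medians were 0.00 for complex I, -0.02 for complex III, 0.06 for complex IV and 0.05 for complex V. Atp5b, the catalytic subunit of ATP synthase, was at 1629, 1804 and 1659 CPM in vehicle libraries and 2037, 2020 and 1540 CPM in setanaxib libraries, with setanaxib replicates 1 and 2 above the vehicle range and replicate 3 below it. Ndufv1, the NADH-binding subunit of complex I, was at 204, 241 and 217 CPM in vehicle libraries and 260, 264 and 206 CPM in setanaxib libraries. The partners' counts depended on the library left out. Setanaxib replicate 3 had the highest sums of lung and atrial markers. Without it, 21 of 42 partners had an unadjusted p under 0.05, all higher with setanaxib, against 5.67% of all genes higher at that p. Their median was then 0.20 on the log2 scale, edgeR called 0, and the lowest adjusted p among them was 0.228, for Cox6c. Without setanaxib replicate 1 or 2, 0 of 42 had an unadjusted p under 0.05, and the medians were -0.06 and -0.02.

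**Figure D5:**
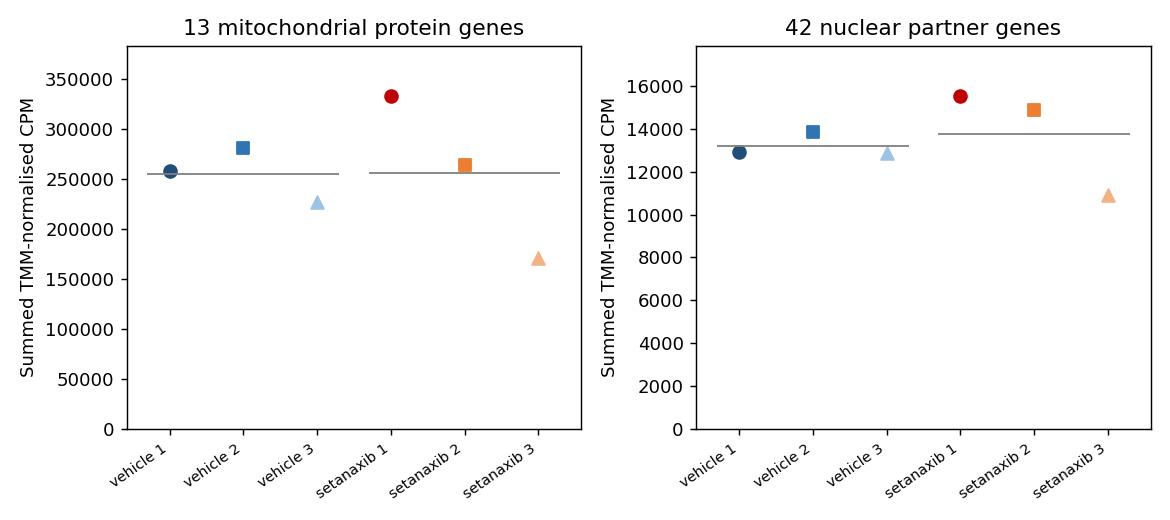
Points give summed TMM-normalised CPM per library, on separate axes that start at 0, for the 13 mitochondrial protein genes and for 42 nuclear partner genes of the same complexes. Grey lines mark the group means. In both, setanaxib replicate 1 is highest and setanaxib replicate 3 lowest, and the vehicle libraries lie between 226843 and 280482 CPM and between 12899 and 13851 CPM.

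None of the nuclear genes listed for mitochondrial gene expression was called either. The 6 lists, for transcription, replication, RNA processing, RNA modification, translation factors and tRNA synthetases, had 94 members, all tested, of which 32 had log2 fold changes above 0 and 62 below. edgeR called 0 of 94 and had 2 at an unadjusted p under 0.05, or 2.13% against 8.46% of all genes. DESeq2 and limma-voom called 0 as well, with 3 and 2 at an unadjusted p under 0.05. The groups did not overlap in 7 of 94, or 7.45%, against 17.6% of all genes. List medians ran from -0.09 for translation factors and for RNA modification to 0.02 for the tRNA synthetases, with transcription at -0.08, RNA processing at -0.07 and replication at -0.02.

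Polrmt, the polymerase that transcribes the mitochondrial genome, was at 29.2, 33.3 and 28.9 CPM in vehicle libraries and 25.9, 26.1 and 22.7 CPM in setanaxib libraries (log2 fold change -0.29, SE 0.10, edgeR adjusted p = 0.530). Each setanaxib library was below each vehicle library. Rexo2, an exonuclease that degrades short RNA in mitochondria, was at 17.3, 18.1 and 16.6 CPM in vehicle libraries and 15.1, 14.8 and 12.6 CPM in setanaxib libraries, likewise without overlap (log2 fold change -0.29, SE 0.11, edgeR adjusted p = 0.548). Fastkd5, which is needed to process mitochondrial precursors that no tRNA borders, was the other gene of RNA processing without overlap, at -0.24 on the log2 scale (SE 0.11, edgeR adjusted p = 0.636). Ssbp1, which binds single-stranded mitochondrial DNA at replication, was at 8.22, 7.82 and 8.36 CPM in vehicle libraries and 13.3, 9.88 and 8.87 CPM in setanaxib libraries, each setanaxib library above each vehicle library (log2 fold change 0.39, SE 0.17, edgeR adjusted p = 0.615). Nsun3, which modifies the methionine tRNA mt-Tm, and the asparagine tRNA synthetase Nars2 were also higher without overlap, at log2 fold changes of 0.22 and 0.25, and the ribosome recycling factor Mrrf was lower, at -0.18. Of the other 11 genes with the lowest p in their lists, Mterf4, Polg2, Mpv17, Mtfmt and Pars2 had positive and Mterf2, Mrm3, Gtpbp3, Taco1, Fastkd1 and Ears2 negative log2 fold changes, and none was called.

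The 8 genes taken as a gauge of mitochondrial mass, among them the citric acid cycle enzyme Cs, were divided 4 above and 4 below 0, with a median of -0.00 and 0 called by edgeR. At an unadjusted p under 0.05 there were also 0 by edgeR.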

How the data were processed

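RNA from mouse hearts was sequenced in 3 vehicle and 3 setanaxib libraries, and groups were taken from the treatment named in the labels. The authors deposited estimated counts per gene for 50385 genes, with no scaling between libraries. Row and column names have the shape of StringTie output, per the file headers. The values were whole already and were not rounded. They behave as estimates, with 30 to 40 genes at a value of 1 and 157 to 188 at a value of 2 in each library. The same count tests were kept, although the design had assumed raw counts. The tools were STAR 2.5.4b, featureCounts 2.0.1, FastQC 0.11.9 and DESeq2 1.42.0, with the genome GRCm39, per the submitters' processing notes. The sources used here do not give which tool did which step, the strand setting or the RNA selection.

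The default filterByExpr step of edgeR, with a minimum count of 10, kept 20472 genes, and libraries were scaled by TMM, with factors of 0.892 to 1.19. The test was edgeR's (4.0.16, R 4.3.3) two-sided quasi-likelihood F test over all genes, adjusted by Benjamini-Hochberg and read at a threshold of 0.05. Standard errors given with edgeR values were derived from it, as the absolute log2 fold change divided by the square root of F. Alternatives were DESeq2 (1.42.0), limma-voom (limma 3.58.1), other scalings, no filter, added copies and leaving out each library. The script was tested on simulated data. Sums, shares and lists got no test. Lists are given by counts and medians beside those of all genes. Copies were found by BLAST 2.17.0 against GENCODE M21 transcripts, and adding those of 99% identity was chosen after seeing the data. Members and lists were chosen with earlier results of these data known. By rule, all protein and rRNA genes, the 6 tRNA genes of highest mean count among those tested, and up to 3 genes of lowest p per list were named. Replicate numbers follow record order and pair no samples.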

Additional observations from a re-analysis of the deposited data

How the results depend on the processing

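Few counts limit mt-Tf and mt-Tg, which were not tested. No member was called under any alternative run, with the lowest adjusted p 0.245 by DESeq2 and 0.479 by limma-voom. No share differed from its main value by more than the spread between libraries. mt-Ti, mt-Tq, mt-Tm, mt-Te and mt-Tt kept their sign throughout, the last 2 within 0.03 to 0.76 and 0.15 to 2.49 when each library was left out. No paired analysis was possible because the labels give the groups no shared replicate numbers.

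Log2 fold changes near 0 turned with the scaling: by limma-voom, mt-Nd2 (-0.022), mt-Nd3 (-0.079), mt-Nd4l (-0.047) and mt-Cytb (-0.018); by total count, mt-Nd3 (-0.023) and mt-Nd4l (-0.010); with TMM from nuclear genes, mt-Nd3 (-0.00263); relative to the protein pool, mt-Nd3 (-0.034) and mt-Nd4l (-0.00679); and with copies of 99% identity added, mt-Nd4l (-0.014). The 13 protein genes were then divided 3 above and 10 below 0 by limma-voom, 5 and 8 by total count and by the pool, and 6 and 7 with nuclear TMM or with the copies, against 7 and 6. Members higher without overlap were 0 with DESeq2's factors and 3 relative to the pool, against 1.

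Leaving out each library in turn gave these ranges for values that changed sign, with the cause not tested: mt-Nd1 -0.22 to 0.41, mt-Nd2 -0.31 to 0.32, mt-Nd3 -0.29 to 0.28, mt-Nd4l -0.21 to 0.25, mt-Nd4 -0.25 to 0.21, mt-Nd5 -0.15 to 0.36, mt-Nd6 -0.16 to 0.35, mt-Cytb -0.20 to 0.24, mt-Co1 -0.24 to 0.17, mt-Co2 -0.30 to 0.12, mt-Co3 -0.27 to 0.17, mt-Atp6 -0.31 to 0.20, mt-Atp8 -0.35 to 0.22, mt-Rnr1 -0.17 to 2.05, mt-Rnr2 -0.77 to 1.29, mt-Ts1 -0.15 to 0.20, mt-Tl1 -0.45 to 0.95, mt-Tc -0.36 to 0.48, mt-Ty -0.38 to 0.48, mt-Tn -0.33 to 0.48 and mt-Tk -0.20 to 1.46. Of the nuclear genes, the ranges were Ndufs1 -0.062 to 0.22, Ndufs3 -0.10 to 0.16, Uqcr10 -0.011 to 0.21, Uqcrh -0.031 to 0.18, Uqcr11 -0.049 to 0.22, Cox6a2 -0.015 to 0.21, Tomm20 -0.076 to 0.42 and Immt -0.16 to 0.066. List medians changed sign too, from -0.09 to 0.16 for the partners in complex I, -0.13 to 0.16 in complex III, -0.03 to 0.21 in complex IV and -0.06 to 0.21 in complex V, -0.15 to 0.04 for transcription, -0.02 to 0.06 for replication, -0.15 to 0.06 for RNA processing, -0.17 to 0.02 for translation factors, -0.08 to 0.09 for tRNA synthetases and -0.12 to 0.14 for mitochondrial mass, while RNA modification stayed below 0. Members without overlap were 1 to 7 higher and 3 to 5 lower, with the 7 found without setanaxib replicate 3 and the 5 without setanaxib replicate 1. Groups part more easily with 1 library fewer. The share of all genes without overlap was not computed for these fits, so these counts have no background to be read against.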
